A study of Mus musculus with 24 samples.

Results

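The 4 TCF/LEF transcription factor genes (Tcf7, Tcf7l1, Tcf7l2 and Lef1) and 6 feedback genes of the Wnt/beta-catenin pathway (Axin2, Lgr4, Lgr5, Znrf3, Rnf43 and Nkd1) were followed in single cortical collecting ducts of mice with a mutant beta-catenin. The 10 genes were chosen by name among the 55416 genes of the deposited table, and each symbol stood on 1 row. The mutant mice (MUT) carried a beta-catenin in which, per the labels' protocols, threonine 551 and serine 552 were replaced by alanine. The legend sheet lists the serine 552 change alone. The wild-type mice (WT) were the comparison group. All mice were male C57BL/6 animals 10 weeks old, with 4 mice per genotype, and 3 cortical collecting ducts were microdissected from each, which gave 24 libraries of polyA RNA. The labels give vehicle as the treatment of every mouse, although their protocol speaks of no treatment. They do not say in which tissues the mutant allele is present, or whether the genotypes were littermates.

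In the canonical Wnt pathway, beta-catenin that escapes the destruction complex enters the nucleus and binds TCF/LEF factors, which carry it to the promoters and enhancers of target genes. Without beta-catenin the same factors hold corepressors of the TLE family. Several targets act back on the pathway. AXIN2 rebuilds the destruction complex, NKD1 binds Dishevelled, and the membrane ubiquitin ligases ZNRF3 and RNF43 remove Frizzled receptors from the cell surface. LGR4 and LGR5 bind R-spondins and so take ZNRF3 and RNF43 off the membrane. In the kidney the pathway is known for its part in ureteric bud and nephron formation, and phosphorylation of serine 552 by protein kinases A and AKT has been tied to the transcriptional activity of beta-catenin.

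Transcript levels are given as TPM, the share of a library's transcripts that a gene takes, scaled for transcript length, so levels of different genes can be set side by side. Sequencing depth is unknown because TPM keep none. The number of genes listed above 0 TPM ran from 23580 to 32480 per library. The tubules carried the defining markers of their segment in both genotypes. The 7 principal cell markers, led by Aqp2, summed to a median of 28989 TPM in MUT tubules and 30732 TPM in WT tubules. The 6 intercalated cell markers summed to 6793 TPM and 6521 TPM in the same order of genotypes. Markers of red cells, proximal tubules and thick ascending limbs, added up, reached at most 1018 TPM in any MUT tubule and 27089 TPM in the highest WT tubule, and 4 libraries, all WT, were above 2000 TPM. Results were also computed without those 4 libraries. Nothing was measured on sorted cells, so a smaller share of a cell type and less RNA per cell cannot be told apart in these tubules.

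The 10 genes fell into an expressed group and a group near the floor of the table. Lgr4, Rnf43, Tcf7l1, Tcf7l2 and Znrf3 were at 1 TPM or more in all 24 tubules. Lgr5, Tcf7, Axin2, Lef1 and Nkd1 had means under 1 TPM. Of the feedback genes for membrane proteins, Lgr4, Rnf43 and Znrf3 were thus expressed, while the receptor gene Lgr5 had a mean under this level. The means of the cytoplasmic inhibitors Axin2 and Nkd1 were under it as well. Over the 8 mouse means, Lgr4 averaged 34.9 ± 2.86 TPM, Rnf43 25.7 ± 2.91 TPM, Tcf7l1 22.3 ± 3.84 TPM, Tcf7l2 15.3 ± 2.08 TPM and Znrf3 6.09 ± 2.39 TPM (SD, n = 8 mice). The 5 low genes averaged 0.703 ± 0.309 TPM for Lgr5, 0.419 ± 0.133 TPM for Tcf7, 0.394 ± 0.181 TPM for Axin2, 0.385 ± 0.193 TPM for Lef1 and 0.262 ± 0.0899 TPM for Nkd1 (SD, n = 8 mice). Among the 15013 genes that averaged 1 TPM or more, 67.9% lay below Lgr4 and 32.7% below Znrf3, so the expressed members were genes of middle abundance.

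Neighbours in this order were compared within mice by a two-sided exact sign-flip permutation test, with adjustment over the 9 neighbouring pairs. The order itself was read from the same means. Lgr4 was above Rnf43 by 9.16 ± 2.83 TPM, Tcf7l1 above Tcf7l2 by 7.02 ± 2.70 TPM, Tcf7l2 above Znrf3 by 9.23 ± 2.44 TPM and Znrf3 above Lgr5 by 5.39 ± 2.53 TPM, each in 8 of 8 mice (SD of the paired difference, exact permutation p = 0.0078, the smallest this test can give, adjusted p = 0.0176). Rnf43 was above Tcf7l1 in 6 of 8 mice, a difference of 3.38 ± 3.09 TPM that missed the threshold (exact permutation p = 0.0313, adjusted p = 0.0563). Lgr5 was above Tcf7 in 6 of 8 mice by 0.285 ± 0.308 TPM (exact permutation p = 0.0469, adjusted p = 0.0703). Among Tcf7, Axin2, Lef1 and Nkd1 no neighbouring pair passed the threshold, with exact permutation adjusted p from 0.241 to 0.875, and pairs farther apart were not tested.

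**Figure D1:**
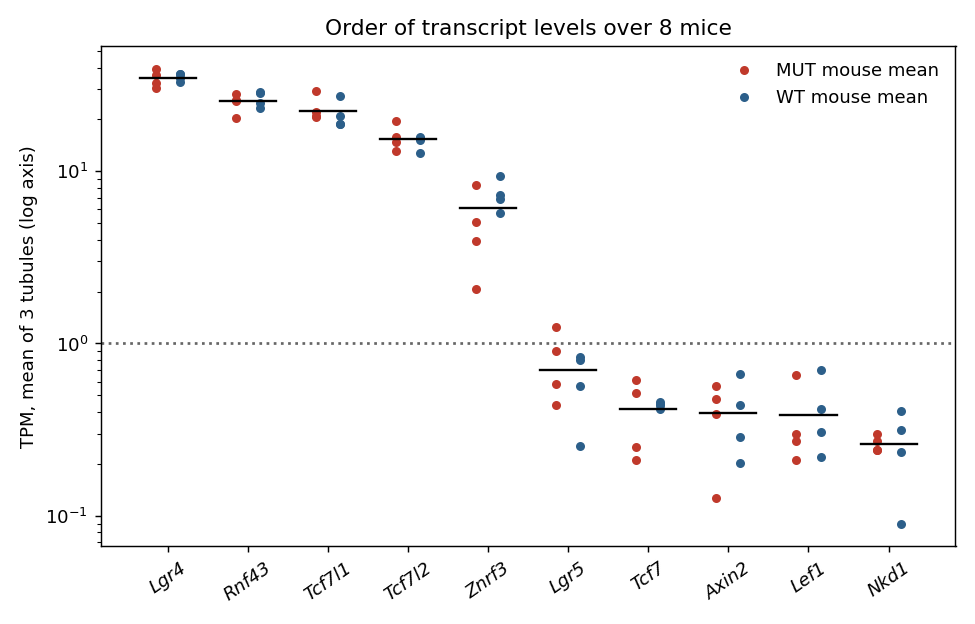
Mean TPM of each gene per mouse (mean of 3 tubules, log axis) in 4 MUT (red) and 4 WT (blue) mice, ordered by the mean over 8 mice (black bars). The dotted line is 1 TPM. Lgr4 at 34.9 TPM leads, Znrf3 at 6.09 TPM is the lowest of the expressed genes, and the other 5 lie under 1 TPM.

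Of the 4 TCF/LEF genes, Tcf7l1 and Tcf7l2 supplied nearly all transcripts. Tcf7l1 encodes a factor known mainly as a repressor of Wnt targets, and Tcf7l2 a factor that activates or represses with its partners. Tcf7 and Lef1 encode the members known mainly as activators. Tcf7l1 made up 58.3% ± 2.31 of the TCF/LEF TPM in MUT mice and 57.6% ± 3.82 in WT mice (SD, n = 4 each). Tcf7l2 made up 39.8% ± 1.35 in MUT mice and 40.1% ± 3.75 in WT mice. Tcf7 took 0.987% ± 0.464 in MUT mice and 1.19% ± 0.128 in WT mice, and Lef1 0.920% ± 0.547 in MUT mice and 1.12% ± 0.587 in WT mice. The summed level was 39.8 ± 6.72 TPM in MUT mice and 37.2 ± 4.78 TPM in WT mice. These shares are given as a description, and the genotypes overlapped in each.

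Neither expressed TCF/LEF gene differed between genotypes beyond the spread between mice. Mouse means of Tcf7l1 were 29.2, 22.2, 20.9 and 20.5 TPM in MUT mice 1 to 4, against 18.7, 27.3, 18.9 and 21.0 TPM in WT mice 1 to 4. MUT mouse 1 and WT mouse 2 stood highest, and the ranges overlapped. The difference in log2(TPM + 1) was 0.12 (MUT minus WT, SE 0.14, 95% interval -0.21 to 0.44, limma adjusted p = 0.991). It was 0.01 without MUT mouse 1 and 0.24 without WT mouse 2 (limma adjusted p = 0.999 and 0.675). Mouse means of Tcf7l2 were 19.6, 14.7, 15.9 and 13.1 TPM in MUT mice and 15.8, 15.6, 12.8 and 15.1 TPM in WT mice. MUT mouse 1 was again the highest of the 8, and the difference was 0.08 (SE 0.12, 95% interval -0.19 to 0.35, limma adjusted p = 0.997). Without MUT mouse 1 its sign turned, with a difference of -0.02.

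The activator genes Tcf7 and Lef1 were near the floor in both genotypes. Tcf7 ranged from 0.03 to 0.95 TPM over MUT tubules (median 0.34 TPM) and from 0.03 to 0.86 TPM over WT tubules (median 0.44 TPM). Lef1 ranged from 0.13 to 0.70 TPM over MUT tubules (median 0.275 TPM) and from 0.12 to 1.06 TPM over WT tubules (median 0.38 TPM). The single tubules thus overlapped across nearly the whole range. In the fit of all 43528 genes listed above 0 in any library, the log2 differences were -0.04 for Tcf7 (SE 0.13, limma adjusted p = 0.984) and -0.05 for Lef1 (SE 0.15, limma adjusted p = 0.984). Tcf7 and Lef1 are also known as genes of T cells. The 7 T cell markers summed to 3.51 to 11.7 TPM in MUT tubules and 3.79 to 12.2 TPM in WT tubules, 2 of the 7 (Cd8a and Trac) were at 1 TPM or more on average, none was at 0 in every library, and Cd3d, Cd3e and Cd3g averaged 0.121, 0.385 and 0.428 TPM. With the mean log2(TPM + 1) of these markers, Pearson r over 24 tubules was 0.28 for Tcf7 and -0.10 for Lef1. With each mouse's own mean taken away these values were 0.29 and -0.26. The part of T cells in the Tcf7 and Lef1 levels was not tested.

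**Figure D2:**
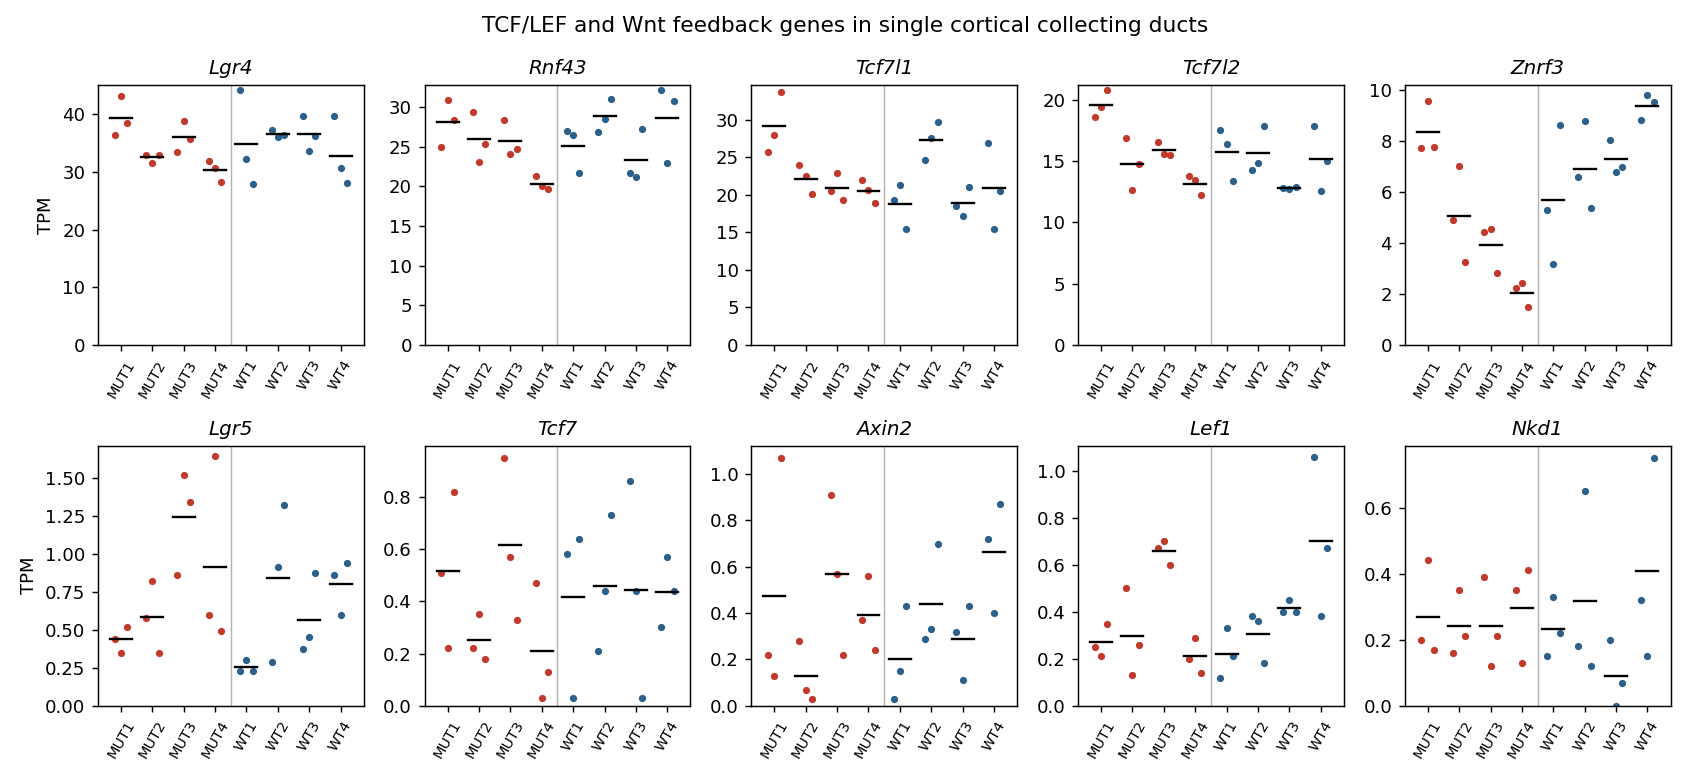
TPM of the 10 genes in each of 24 tubules (points, 3 per mouse) with mouse means (bars), MUT mice left and WT mice right of the line. Znrf3 reaches its lowest mean, 2.06 TPM, in MUT mouse 4 and its highest, 9.39 TPM, in WT mouse 4, while Lgr4 stays between 30.4 and 39.4 TPM in all mouse means.

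Znrf3, one of the pair of Frizzled-removing ubiquitin ligases, had the largest genotype difference of the 10 genes, and it did not pass the threshold. Mouse means were 8.35, 5.07, 3.95 and 2.06 TPM in MUT mice 1 to 4, against 5.71, 6.92, 7.29 and 9.39 TPM in WT mice 1 to 4. MUT mice 2, 3 and 4 lay below every WT mouse, and MUT mouse 1 lay above 3 of the 4. The mean was 4.86 ± 2.64 TPM in MUT mice and 7.33 ± 1.53 TPM in WT mice (SD, n = 4 each). The difference in log2(TPM + 1) was -0.60 (SE 0.31, 95% interval -1.29 to 0.09, unadjusted p = 0.0827, limma adjusted p = 0.980). Without MUT mouse 1 it was -0.87 (limma adjusted p = 0.950) and without MUT mouse 4 -0.33 (limma adjusted p = 0.973). When the 24 tubules were taken as independent the unadjusted p was 0.00893 (limma adjusted p = 0.248). That fit ignores that 3 tubules share a mouse, so its p is too small. With mice as random effects the unadjusted p was 0.0175 (limma adjusted p = 0.786). That fit used a common within-mouse correlation for all genes, so it is not fitted to the spread of Znrf3. Neither replaces the comparison of mouse means. The difference was -0.60 without the 4 WT libraries high in other markers.

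The spread of Znrf3 lay between mice more than between tubules of a mouse. Tubules ranged from 1.51 to 9.57 TPM in MUT mice (median 4.51 TPM) and from 3.19 to 9.80 TPM in WT mice (median 7.54 TPM). On the log2(TPM + 1) scale the SD of the mouse means within a genotype was 0.52 and that between tubules of a mouse 0.33. With the tubules' part in the mouse means subtracted, 68.1% of the variance within genotypes lay between mice, where the median of the 1715 genes at 5 to 10 TPM was 20.2%. Of these genes 90.3% had a smaller SD of mouse means than Znrf3. Among the other expressed members the share was 55.7% for Tcf7l2, 52.1% for Tcf7l1, 43.1% for Rnf43 and 19.4% for Lgr4. The median of the 5220 genes at 10 to 50 TPM was 25.4%. For Znrf3, the 3 tubules of MUT mouse 4 were at 2.25, 2.42 and 1.51 TPM, while those of WT mouse 1 were at 5.29, 3.19 and 8.66 TPM.

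Its paralogue Rnf43 was higher than Znrf3 in every mouse and steadier. Mouse means were 28.1, 25.9, 25.7 and 20.3 TPM in MUT mice and 25.1, 28.8, 23.3 and 28.6 TPM in WT mice. MUT mouse 4 was the lowest of the 8 for both ligases. The Rnf43 difference was -0.08 (SE 0.11, 95% interval -0.32 to 0.17, limma adjusted p = 0.997), and without MUT mouse 4 it was 0.01. Rnf43 exceeded Znrf3 by a ratio of 6.21 ± 2.75 in MUT mice (from 3.36 to 9.85) and 3.70 ± 0.673 in WT mice (from 3.05 to 4.39). The ratios of the genotypes overlapped, and the sum of both ligases was 29.9 ± 5.80 TPM in MUT mice and 33.8 ± 3.68 TPM in WT mice (SD, n = 4 each).

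Lgr4 was the R-spondin receptor gene of these tubules, and had the lowest coefficient of variation of the 10 over mice. Mouse means were 39.4, 32.5, 36.0 and 30.4 TPM in MUT mice and 34.8, 36.6, 36.5 and 32.9 TPM in WT mice. The genotypes overlapped, with both the highest and the lowest mean in MUT mice. The difference was -0.02 (SE 0.09, 95% interval -0.21 to 0.17, limma adjusted p = 0.998), and the coefficient of variation over 8 mice was 8.21%, against 39.3% for Znrf3. For its level this spread was ordinary. Of the 5220 genes at 10 to 50 TPM, 45.6% had a smaller SD of mouse means within genotypes, on the log2(TPM + 1) scale. Lgr5, a receptor gene best known from stem cells of the intestine, ranged from 0.35 to 1.64 TPM over MUT tubules (median 0.59 TPM) and from 0.23 to 1.32 TPM over WT tubules (median 0.525 TPM). Its mean of 0.793 ± 0.358 TPM in MUT mice and 0.614 ± 0.270 TPM in WT mice (SD, n = 4 each) gave a difference of 0.14 (SE 0.19, limma adjusted p = 0.960 in the fit with no filter). The 3 tubules of MUT mouse 3, at 0.86, 1.52 and 1.34 TPM, held the highest mouse mean, 1.24 TPM, and WT mouse 1 the lowest, 0.253 TPM. The Lgr5 difference was 0.03 without MUT mouse 3, 0.03 without WT mouse 1 and 0.24 without MUT mouse 1.

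Axin2 and Nkd1, widely used reporters of Wnt/beta-catenin activity, were at or near the floor in all mice. Axin2 ranged from 0.03 to 1.07 TPM over MUT tubules (median 0.26 TPM) and from 0.03 to 0.87 TPM over WT tubules (median 0.365 TPM). Its mean was 0.389 ± 0.189 TPM in MUT mice and 0.398 ± 0.202 TPM in WT mice (SD, n = 4 each). Tubules of 1 mouse differed widely, as in MUT mouse 1, where they were at 0.22, 0.13 and 1.07 TPM. The Axin2 difference was -0.02 (SE 0.15, 95% interval -0.36 to 0.31, limma adjusted p = 0.995 in the fit with no filter). Nkd1 ranged from 0.12 to 0.44 TPM over MUT tubules and, listed at 0 in 1 WT tubule, up to 0.75 TPM over WT tubules. Its mean was 0.262 ± 0.0273 TPM in MUT mice and 0.262 ± 0.135 TPM in WT mice (SD, n = 4 each, log2 difference 0.01, SE 0.09, limma adjusted p = 0.995).

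**Figure D3:**
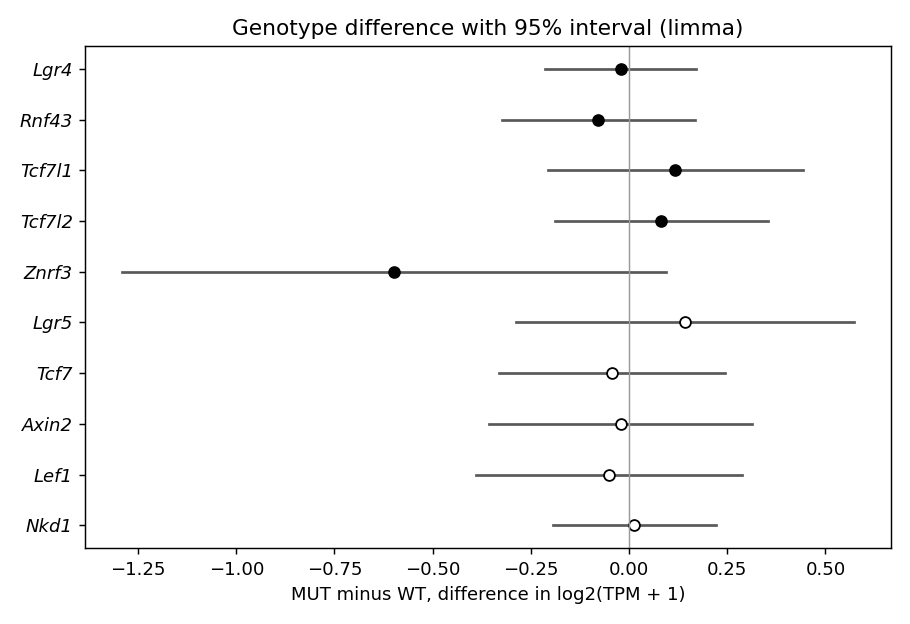
Difference in log2(TPM + 1), MUT minus WT, with its 95% interval from limma on 8 mouse means (filled points, genes tested after the filter at 1 TPM, and open points, genes under it, from the fit with no filter). Every interval includes 0, and Znrf3 at -0.60 has the widest.

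Set against the whole table, the genotype comparison called none of the genes. Of the 5 members above this filter, limma called 0 at an adjusted p under 0.05 and 0 had an unadjusted p under 0.05. The background was 0% of 15013 genes called after adjustment and 4.6% with an unadjusted p under 0.05. By direction, 2.82% had such a p with a higher level in MUT and 1.79% with a lower level. The MUT and WT mouse means overlapped in all 5, where 3.02% of the tested genes had groups that did not overlap. The 5 members had a median log2 difference of -0.02, with 2 higher and 3 lower in MUT, and all tested genes a median of 0.01. The other 5 members were under the filter, and in the fit with no filter, which called 0% of 43528 genes and had 3.57% with an unadjusted p under 0.05, 0 of the 10 passed either threshold.

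The wider pathway gave the same count. Among 20 other target and feedback genes, 8 were expressed enough to test, 6 were higher and 2 lower in MUT, and limma called 0 (median 0.05, lowest adjusted p = 0.980). Over all tested genes, 54.3% were higher in MUT. Ccnd1, for cyclin D1, was at 136 ± 33.6 TPM in MUT mice and 108 ± 5.66 TPM in WT mice (SD, n = 4 each, log2 difference 0.31, SE 0.16), with MUT values from 95.6 to 178 TPM around the WT values from 105 to 117 TPM. Kremen1, for a Dickkopf receptor, was at 16.5 ± 1.08 TPM in MUT mice and 16.2 ± 1.81 TPM in WT mice. Cd44, for a hyaluronan receptor, was at 1.28 ± 0.416 TPM in MUT mice and 1.02 ± 0.218 TPM in WT mice. The secreted inhibitor genes Notum and Wif1 and the target genes Sp5, Apcdd1 and Nkd2, the paralogue of Nkd1, had means from 0.0783 to 0.491 TPM, below the filter like Axin2. Other genes of the list were above it, with means of 12.8 TPM for Ephb3, 8.40 TPM for Myc, 6.47 TPM for Prickle1, 6.27 TPM for Ephb2 and 1.68 TPM for the secreted inhibitor gene Dkk1.

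Of 23 genes for nuclear partners of the TCF/LEF factors, 22 were at 1 TPM or more on average and were tested, all but Pygo1 at 0.211 TPM. Of the 22, 11 were higher and 11 lower in MUT, and limma called 0 (median -0.01, lowest adjusted p = 0.980). Ctnnb1, for beta-catenin itself, was at 383 ± 16.7 TPM in MUT mice and 387 ± 11.9 TPM in WT mice (SD, n = 4 each). The mutation changes amino acids, so that level does not check the genotype labels. Tle5, a short member of the TLE corepressor family, was at 994 ± 44.2 TPM in MUT mice and 970 ± 49.2 TPM in WT mice. Hipk2, for a kinase that phosphorylates TCF factors, was at 28.5 ± 10.0 TPM in MUT mice and 35.5 ± 3.55 TPM in WT mice (log2 difference -0.38, SE 0.23). Crebbp, for the acetyltransferase CBP, was at 11.9 ± 1.94 TPM in MUT mice and 14.1 ± 1.45 TPM in WT mice (log2 difference -0.23, SE 0.13).

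The R-spondin genes, ligands of LGR4, were barely listed in these tubules, with means from 0.0463 TPM for Rspo3 to 0.101 TPM for Rspo1. Of 20 genes for R-spondins, receptors and Dishevelled proteins, 13 were tested, 6 were higher and 7 lower in MUT, and limma called 0 (median -0.01), while 1 had an unadjusted p under 0.05, where 4.6% of all tested genes did. That gene was Lrp6, a Wnt co-receptor, at 36.1 ± 1.09 TPM in MUT mice and 31.3 ± 3.64 TPM in WT mice (SD, n = 4 each, log2 difference 0.21, SE 0.08, limma adjusted p = 0.980). Fzd4 led the Frizzled receptors, the proteins that ZNRF3 and RNF43 remove, with 88.1 ± 7.47 TPM in MUT mice and 89.0 ± 5.57 TPM in WT mice. Dvl1, for a Dishevelled protein, was at 50.4 ± 6.67 TPM in MUT mice and 51.2 ± 7.10 TPM in WT mice. Fzd2 was at 1.38 ± 0.183 TPM in MUT mice and 1.87 ± 0.164 TPM in WT mice (log2 difference -0.27, SE 0.13).

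Tcf7l1, Tcf7l2 and Rnf43 varied together over tubules. The following correlations of log2(TPM + 1) are descriptions over 24 tubules, which share 8 mice and the cell makeup of each dissection. Tcf7l1 and Tcf7l2 had a Pearson r of 0.73 (Spearman 0.68), Rnf43 and Tcf7l2 one of 0.73 (Spearman 0.73), and Rnf43 and Tcf7l1 one of 0.64 (Spearman 0.64). With each mouse's own mean taken away these were 0.77, 0.80 and 0.73. Over 24 tubules, the 95th percentile of r with other tested genes was 0.65 for Tcf7l1, 0.60 for Tcf7l2 and 0.61 for Rnf43. The r of Rnf43 and Tcf7l1 lay under the percentile of Tcf7l1 and above that of Rnf43, so many other genes varied with Tcf7l1 as closely. Znrf3 and Rnf43 had a Pearson r of 0.44 (Spearman 0.40) over all tubules, 0.74 over the 12 MUT tubules, -0.10 over the 12 WT tubules and -0.26 within mice. Among the low genes, the Pearson r between Axin2 and Lef1 was 0.51 and that between Axin2 and Lgr5 0.48, with 0.35 and 0.34 within mice.

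Tcf7l1 followed the mean score of the principal cell markers. Its Pearson r with the mean log2(TPM + 1) of the 7 markers was 0.88 over 24 tubules (Spearman 0.84), a value that 99.8% of the 15013 tested genes lay under. It was 0.85 over MUT tubules, 0.90 over WT tubules and 0.73 within mice. MUT mouse 1 and WT mouse 2, the highest in Tcf7l1, also had the highest mean scores, 11.7 in each. Without both mice r was 0.73 over the remaining 18 tubules. The markers moved unequally over tubules, with Aqp2 from 9501 to 30070 TPM and Scnn1b from 845 to 1257 TPM. The r with each marker alone was not computed. For Rnf43 r was 0.58 over all tubules, above 91.8% of tested genes, with 0.80 within mice and 0.45 without both mice. For Tcf7l2 it was 0.55, above 90.3% of tested genes, with 0.70 within mice and 0.23 without both mice, so its value over all tubules rested in part on them. For Lgr4 it was 0.38, with 0.20 within mice and 0.08 without both mice. For Znrf3 it was 0.25 over all tubules, 0.70 over MUT tubules, -0.08 over WT tubules, -0.23 within mice and -0.09 without both mice. With the 6 intercalated cell markers r ran from -0.42 for Lgr4 to -0.20 for Znrf3 over the 5 expressed members. Within mice it was -0.34 for Lgr4, -0.30 for Rnf43, -0.50 for Tcf7l1, -0.59 for Tcf7l2 and 0.24 for Znrf3. Over MUT and WT tubules it was -0.30 and 0.31 for Znrf3, 0.01 and -0.30 for Rnf43, and -0.09 and -0.64 for Lgr4. Of the 11 marker lists, that of fibroblasts and pericytes had the r farthest from 0 with Znrf3 over 24 tubules, at -0.55, with -0.73 over MUT tubules, -0.16 over WT tubules and -0.16 within mice. Its 5 markers summed to 22.7 to 90.3 TPM in MUT tubules and 22.9 to 102 TPM in WT tubules. Nearly all of that sum was Dcn, which averaged 62.8 TPM. The other markers averaged from 0.128 TPM for Col1a1 to 1.47 TPM for Col3a1, and 2 of the 5 were at 1 TPM or more. The r was computed with the mean log2(TPM + 1) of the 5 markers, not with their sum, so each had equal weight. With proximal tubule markers r was -0.06 over 24 tubules, -0.82 over MUT tubules, 0.39 over WT tubules and -0.04 within mice. With thick ascending limb markers it was -0.07 over 24 tubules, -0.58 over MUT tubules, -0.04 over WT tubules and -0.16 within mice. The part of these cells in the Znrf3 level was not tested.

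**Figure D4:**
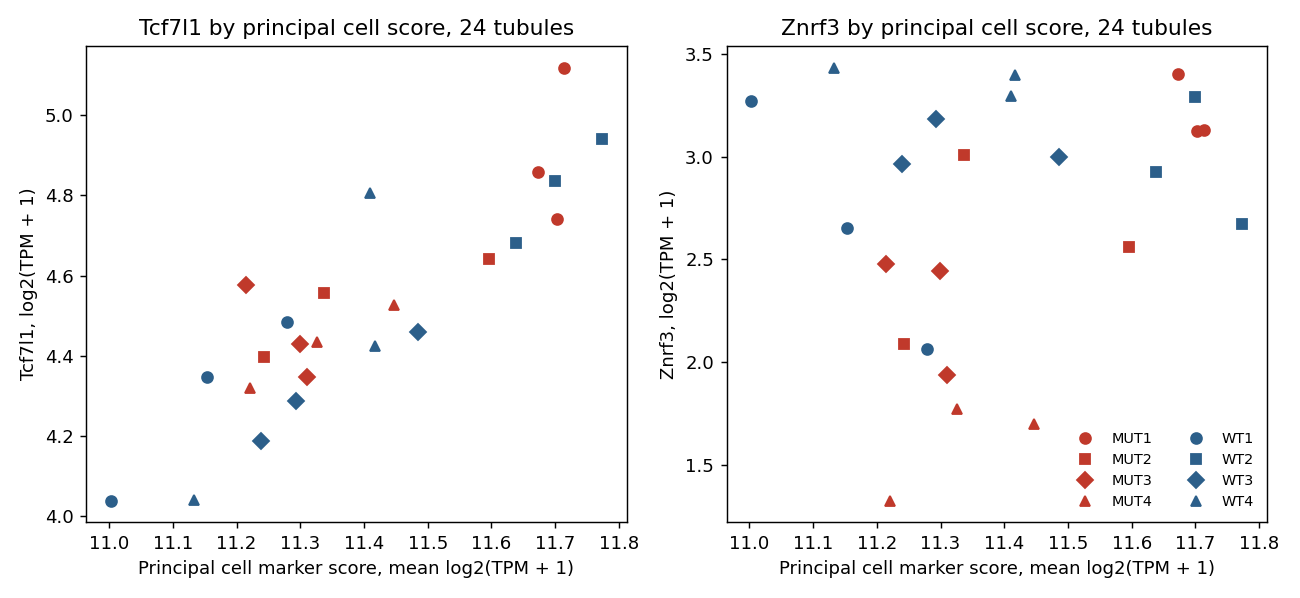
Level of Tcf7l1 (left) and Znrf3 (right) in log2(TPM + 1) against the mean log2(TPM + 1) of 7 principal cell markers in 24 tubules, MUT in red and WT in blue, with a symbol for each mouse. Tcf7l1 climbs with the score in both genotypes (r = 0.88 over 24 tubules), while Znrf3 has r = 0.70 over MUT tubules and -0.08 over WT tubules.

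The genes most like each expressed member over the 24 tubules were taken as the 3 with the highest Pearson r among the tested genes. For Znrf3 these were Cul3, the scaffold of a family of ubiquitin ligases, Zfp704, a zinc finger gene, and Mta1, a subunit of the NuRD chromatin remodelling complex, with r of 0.94, 0.93 and 0.93 (Spearman 0.93, 0.90 and 0.93). Within mice r was 0.78, 0.85 and 0.76. Cul3 was at 81.9, 40.0, 25.4 and 20.0 TPM in MUT mice 1 to 4 and at 54.1, 67.4, 80.6 and 99.1 TPM in WT mice 1 to 4, the same order of mice within each genotype as Znrf3. The 3 genes were picked on these same tubules, so neither the shared order nor the r within mice is separate support. For Tcf7l1 the genes were Epor, the erythropoietin receptor, Tril, an accessory protein of Toll-like receptors, and the Wnt ligand gene Wnt7b, with r of 0.91 each. Wnt7b was at 24.9 ± 11.0 TPM in MUT mice and 22.3 ± 14.0 TPM in WT mice (SD, n = 4 each), and reached 40.1 TPM in MUT mouse 1 and 42.9 TPM in WT mouse 2. For Rnf43 they were Lratd1, Gm42929 and Mtcl1, a microtubule crosslinking factor, with r of 0.93, 0.87 and 0.87. For Tcf7l2 they were Arhgap29, the CTP synthase gene Ctps and the lipid kinase gene Pi4k2b, with r of 0.88, 0.86 and 0.84. Lgr4 had less close neighbours, Cbx5 for heterochromatin protein 1 alpha, Dock8 and Lpp, with r of 0.77, 0.74 and 0.74.

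Promoter windows of the members were searched for the TCF/LEF recognition letters on both strands. These were CTTTGAA or, in another form, CTTTGAT, and with a thymine after the core either CTTTGTA or, as the last form, CTTTGTT. The windows run from 250 bases before to 50 bases after each annotated start, were taken from RefSeq on GRCm38.p6, and cover 8 of the 10 members, all but Lgr5 and Znrf3. They are shown because these genes make or answer to TCF/LEF factors, and TPM do not tell which start was used. Of 14 member windows 2 held a match, 14.3%, where 16.9% of all 32851 windows of this length did. Both matches lay in windows of downstream starts, of Lef1 and of Tcf7l2, and the window of Axin2 held none of these letters. The 3 windows follow 5′ to 3′ with the matches in capitals.
Tcf7l2 (GRCm38.p6, chr19:55895071-55895370, plus strand): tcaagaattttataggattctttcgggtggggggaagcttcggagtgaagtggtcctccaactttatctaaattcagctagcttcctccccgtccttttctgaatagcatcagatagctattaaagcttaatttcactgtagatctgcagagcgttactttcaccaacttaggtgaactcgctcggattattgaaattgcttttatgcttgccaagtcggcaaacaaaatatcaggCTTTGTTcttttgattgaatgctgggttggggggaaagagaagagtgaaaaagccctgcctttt
Lef1 (GRCm38.p6, chr3:131156044-131156343, plus strand): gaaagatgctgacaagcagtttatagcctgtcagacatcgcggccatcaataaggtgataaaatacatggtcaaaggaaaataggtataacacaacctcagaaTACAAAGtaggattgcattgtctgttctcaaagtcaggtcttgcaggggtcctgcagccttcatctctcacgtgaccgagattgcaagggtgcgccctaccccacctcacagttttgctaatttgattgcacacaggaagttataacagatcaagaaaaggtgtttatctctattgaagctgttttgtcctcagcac
Axin2 (GRCm38.p6, chr11:108920099-108920398, plus strand): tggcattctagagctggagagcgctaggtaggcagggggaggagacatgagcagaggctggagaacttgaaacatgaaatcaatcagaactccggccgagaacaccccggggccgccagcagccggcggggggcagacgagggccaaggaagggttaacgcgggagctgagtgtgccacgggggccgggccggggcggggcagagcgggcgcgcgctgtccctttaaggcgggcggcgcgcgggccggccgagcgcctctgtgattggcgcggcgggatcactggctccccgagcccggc
In the Tcf7l2 window the match CTTTGTT began 14 bases before the start site, and in the Lef1 window the match was to CTTTGTA on the opposite strand.

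The SMART-Seq kit named in the labels does not keep strand, so reads of overlapping antisense genes could not be told apart from those of the member. By GENCODE M21, an annotation of GRCm38, 4.56% of the exon bases of Tcf7l1 overlap the antisense gene Gm15401, which was at 0.991 TPM on average. For Axin2 3.80% overlap Gm11670, listed at 0 in every library, and for Lef1 13.7% overlap Gm43352. The TPM hold no gene under the symbol Gm43352, so its level is unknown. The other 7 members share no exon bases with another gene of that annotation.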

How the data were processed

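The 24 libraries are single microdissected cortical collecting ducts, 3 from each of 4 MUT and 4 WT mice. RNA was extracted with a Zymo kit and cDNA made with the SMART-Seq V4 Ultra Low Input kit, per the labels' protocols. The authors deposited TPM per gene and tubule. RSEM 1.3.3, STAR (version unclear, so not printed) and GRCm39 appear in the submitters' processing notes. Sources used here do not give the annotation or filters. TPM keep no depth, so no counting interval is given.

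TPM were transformed as log2(TPM + 1) and averaged over the 3 tubules of each mouse, the replicate. The 15013 genes averaging 1 TPM or more were compared between 4 MUT and 4 WT mice with limma 3.58.1 in R 4.3.3 (empirical Bayes, mean-variance trend, two-sided, Benjamini-Hochberg, threshold 0.05). Differences (MUT minus WT) carry limma's standard error (SE), and this scale understates changes of low genes. Members under the filter take the values of the same fit on the 43528 genes above 0 in any library. Where a symbol stood on several rows the row with the highest mean was kept. The fit was tested on simulated data. All 10 members are named, with the 3 most correlated genes of each tested member. From each list the 2 most abundant genes and the 2 with the smallest p are named, and Ctnnb1 always. Notum, Wif1, Sp5, Apcdd1, Nkd2, Ephb2, Ephb3, Myc, Prickle1, Dkk1, Pygo1, Rspo1 and Rspo3 were named after their values were seen. Members and lists were chosen with earlier results of these data known. Alternatives were other pseudocounts, filters, scalings, averaging and tubule models, array weights, a replicate block, and leaving out mice or tubules.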

Additional observations from a re-analysis of the deposited data

How the results depend on the processing

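Under the alternatives run, 0 members passed the threshold, and 4 of 9 neighbouring pairs differed in each check of the order of levels. Over all genes, limma called 1 with the mouse as a random effect and 28 with tubules taken as independent, which ignores the mouse. It called 0 to 1 without any 1 mouse or tubule (1 without MUT mouse 4). Tcf7l1, Lgr5 and Znrf3 kept their direction in every alternative, but Lgr5 ran from 0.027 to 0.24 and Tcf7l1 from 0.0085 to 0.24 without 1 mouse or tubule, and Lgr5 was at 0.078 without tubule 2 of MUT mouse 4. Leaving out 1 mouse or tubule gave log2 differences from -0.12 to 0.023 for Tcf7, -0.019 to 0.16 for Tcf7l2, -0.15 to 0.038 for Lef1, -0.091 to 0.070 for Axin2, -0.084 to 0.037 for Lgr4, -0.13 to 0.014 for Rnf43 and -0.052 to 0.065 for Nkd1, so the direction of these 7 genes rested on single mice or tubules. Nkd1 turned to -0.026 with quantile normalization. Without the 4 WT libraries high in markers of red cells or other tubule segments, chosen after seeing the data, Tcf7 was at 0.074, Lgr4 at 0.060 and Nkd1 at -0.0019. The cause of these turns was not tested. Whether a mouse number shared by the genotypes marks a pairing is not known. Same-numbered mice had correlations of deviations from -0.04 to 0.02, and differently numbered mice from -0.30 to 0.37. Such correlations cannot show whether mice were bred or handled together. With the mouse number as a replicate block limma called 0 genes, and Znrf3 kept -0.60 (limma adjusted p = 1.00). Depth is unknown, which limits what can be said of the 5 members under 1 TPM.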
